A study of Caenorhabditis elegans with 15 samples.

Results

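Cytochrome P450 transcripts were followed in dissected intestines of Caenorhabditis elegans. The members were all genes whose name in the deposited transcript map begins with cyp-, which gave 81 of 46904 genes, in 15 families and 25 subfamilies. The map lists 75 of them as protein coding and 6 as pseudogenes. The first number of a name is the family, the letter the subfamily, and the last number the gene.

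The study used 3 groups of 5 samples, each of 20 intestines from animals aged 5 days that had grown on OP50 bacteria. OE stands for animals with the gas-1(fc21) mutation and overexpression of cest-2.2, gas-1 for the same mutation without the transgene, and the last group was wild type. gas-1 encodes a core subunit of respiratory complex I, and cest-2.2 a carboxylesterase. Both mutant groups carry the same gas-1 allele, and no wild type strain with the cest-2.2 transgene is among the samples. The labels give neither the promoter of the transgene nor the number of independent lines. They also do not say whether the samples of a group came from separate cultures, so p-values measure only the spread between these samples.

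Cytochrome P450 enzymes are heme proteins of the endoplasmic reticulum or mitochondria that insert an oxygen atom into fatty substrates. Electrons reach the microsomal enzymes from NADPH through cytochrome P450 reductase, sometimes helped by cytochrome b5. In animals they carry out the first phase of detoxification and also make or break down fatty acid derivatives, steroids and other signals. In C. elegans the intestine is a main site of detoxification and of fat storage, and many of its P450 genes respond to foreign compounds.

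Libraries held 12785262 to 45896053 estimated counts in OE, 12607565 to 17688689 in gas-1 and 12182697 to 40045140 in wild type. The cest-2.2 transcript, listed under the name ZC376.2, had 60.9 to 179 CPM (counts scaled to a common library total) in OE, 34.9 to 97.5 CPM in gas-1 and 21.6 to 64.3 CPM in wild type. Its change in OE against gas-1 missed the threshold (log2 1.11 ± 0.33, adjusted p 0.109), and OE exceeded wild type (1.52 ± 0.34, adjusted p 0.0112), both from edgeR. The gas-1 transcript had 89.9 to 150 CPM in OE, 94.7 to 145 CPM in gas-1 and 47.8 to 87.7 CPM in wild type. The 18 intestine markers were present in every group and summed to 131077 to 442733 CPM in OE, 156456 to 269212 in gas-1 and 70571 to 208336 in wild type. Most of each sum came from the yolk genes vit-2 and vit-6, with means of 118060 and 147411 CPM in OE. The mean log2 CPM of the 18, which weighs each gene equally, was 7.70 to 9.04 in OE, 8.43 to 9.02 in gas-1 and 7.15 to 8.31 in wild type. Markers of other tissues also differed between groups. Of 20 germline markers, 0 were called higher and 9 lower in gas-1 against wild type, with sums of 2323 to 3861 CPM in OE, 1592 to 2876 in gas-1 and 2801 to 3449 in wild type. Of 14 body wall muscle markers, 6 were called lower in gas-1 than in wild type, with sums of 202 to 658 CPM in OE, 327 to 550 in gas-1 and 304 to 3657 in wild type. Wild type replicates 1, 2 and 4 had the highest muscle sums, at 2265, 1283 and 3657 CPM, and the 10 cuticle markers were highest in the same 3 libraries, at 4542, 1965 and 5231 CPM. In bulk samples, fewer cells of a type and less RNA per cell cannot be told apart.

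The summed level of all 81 P450 genes was highest in gas-1. Levels of different genes are compared in TPM, which corrects for transcript length and scales each library to a common total. The sum was 1410.0, 1150.0, 1383, 1969.7 and 1503 TPM in the OE libraries, 3195, 2469, 3373, 2144 and 3128 TPM in the gas-1 libraries, and 1408, 2374, 1727, 1849.7 and 1783 TPM in the wild type libraries. On this scale every OE library lay below every gas-1 library. Wild type overlapped OE, and it overlapped gas-1 through wild type replicate 2 and gas-1 replicate 4. TPM, like the share of counts that follows, is not corrected for the make-up of each library, whereas the CPM are. The family sum was not compared on the CPM scale, so no separation is stated for that scale. In CPM the summed cyp-13A genes of OE and gas-1 overlapped, as given below. As a share of all estimated counts, the family took 0.136% ± 0.0109 in OE, 0.278% ± 0.0507 in gas-1 and 0.182% ± 0.0331 in wild type (SD, n = 5 each). The shares spanned 0.123 to 0.151% in OE, 0.222 to 0.339% in gas-1 and 0.157 to 0.238% in wild type. By this measure, unlike in TPM, every OE library also lay below every wild type library. PCR reads without molecular identifiers are not independent molecules, so such errors cover only the spread between libraries.

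**Figure D1:**
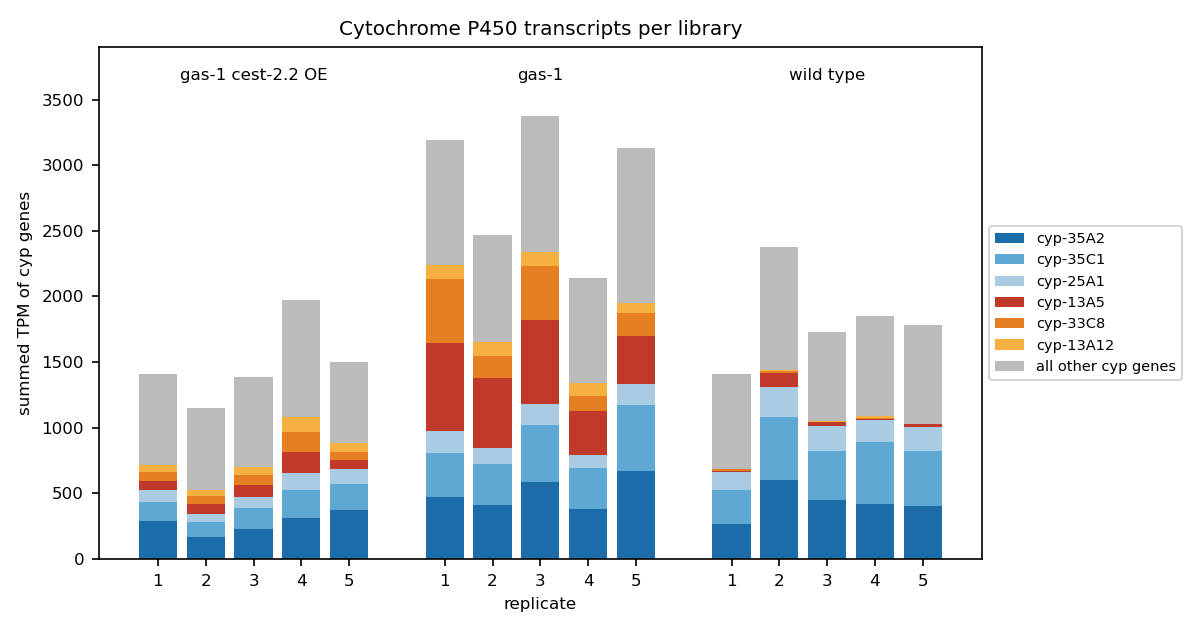
Summed TPM of the cytochrome P450 genes in each library, on a linear axis from 0, stacked by gene with 6 genes shown separately and all others in grey; the groups are OE, gas-1 and wild type and the horizontal axis is the replicate number. The gas-1 bars stand between 2144 and 3373 TPM, the OE bars between 1150.0 and 1969.7 and the wild type bars between 1408 and 2374, and the red part, cyp-13A5, is tallest in gas-1.

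The make-up of this sum differed between groups. In wild type, cyp-35A2 (428 ± 121 TPM), cyp-35C1 (401 ± 85.6 TPM) and cyp-25A1 (180 ± 35 TPM) together made up 55.2% of the mean sum. In gas-1, cyp-13A5 (508 ± 157 TPM, the highest) and cyp-33C8 (271 ± 164 TPM) were among the 4 highest, against 35.3 ± 40.3 and 8.33 ± 7.03 TPM in wild type. In OE, cyp-35A2 (273 ± 79.1 TPM) and cyp-35C1 (167 ± 43.4 TPM) came first again, with cyp-13A5 at 92.9 ± 35 TPM and cyp-33C8 at 85.4 ± 40.9 TPM (SD, n = 5 for each of these values). A mean of at least 1 TPM was reached by 54 members in OE, 57 in gas-1 and 50 in wild type, and 4 members (cyp-25A5, cyp-33B1, cyp-34A3 and cyp-35B3) had no count in any library.

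Tests ran over all genes that passed a filter on low counts, which kept 10585 genes and 60 of the 81 members. The other 21 members were low in every group, with no group mean above 0.744 CPM. Among the 60, cyp-32A1 and cyp-33C2 would not have passed without the OE libraries, cyp-13A3 and cyp-33C2 without the gas-1 libraries, and cyp-14A3, cyp-29A4 and cyp-32A1 without the wild type libraries, so their testing favoured a difference. A gene is called here when its Benjamini-Hochberg adjusted p, from edgeR's quasi-likelihood test over all 10585 genes, is under 0.05. Changes are log2 fold changes as edgeR reports them, which a small prior count moderates. The standard error (SE) beside each was worked out from the unmoderated change and the F statistic of the same test, so it is approximate.

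In gas-1 against wild type, P450 transcripts rose far more often than they fell. Of the 60 tested members, 26 were called higher in gas-1 and 4 lower, and 28 of these 30 changed at least 2-fold. Over all genes tested, 21.4% were called, 12.8% higher and 8.63% lower. The median change was 1.17 over the 60 members and -0.11 over all tested genes, and 46 members had a positive value. All 5 gas-1 libraries lay above all 5 wild type libraries in 19 members and below them in 3, against 9.62% and 6.28% of all tested genes. Without wild type replicates 1, 2 and 4, the libraries rich in muscle transcripts, 12 of 64 members were called, all of them higher, against 4.05% higher and 0.691% lower over all genes of that fit. Only wild type replicates 3 and 5 stayed in it, and calls over all genes fell from 2268 to 556. The median of the members was 1.33 there, with 50 of 64 positive. With the germline marker level as a covariate, 6 members were called higher and 1 lower, against 1.08% and 0.633% of all genes. In the covariate fit the median of the members was 0.10, with 32 of 60 positive, so the general rise of the family was not seen there. The germline level itself differed between gas-1 and wild type, so covariate and group cannot be told apart fully. Over all genes, calls fell from 2268 to 181 in that fit. The 6 members called higher with the covariate were cyp-13A5, cyp-13A11, cyp-13A12, cyp-14A1, cyp-33C8 and cyp-33E2. All of them were also among the 12 called without the muscle-rich libraries. Against wild type, intestine markers moved with the P450 genes: 9 of the 18 were called higher and 0 lower in gas-1 against wild type (median 0.85), and likewise 9 and 0 in OE against wild type (median 0.82). In OE against gas-1, 0 of these markers were called higher and 1 lower (median -0.08), where the median of the P450 members was -0.47. The part of intestine, muscle, cuticle and germline RNA in the difference was not tested beyond these fits.

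In OE against gas-1, 48 of the 60 members had a negative log2 change, but edgeR called only 2, both lower: cyp-13A5 and cyp-33E2. Over all genes tested 1.59% were called, 0.633% higher and 0.954% lower. At an unadjusted p under 0.05 there were 15 members, against 15.9% of all genes, and the DESeq2 Wald test called 2 higher and 6 lower, against 2.04% and 2.82% of all genes. limma-voom called 4 members, all lower, against 2.03% of all genes, and limma on log2(TPM + 1) called 8, all lower, against 2.74% of all genes called lower. All OE libraries lay below all gas-1 libraries in 5 members and above them in 0, against 2.41% and 1.35% of all tested genes. The median was -0.47 over the members and 0.03 over all tested genes. With the germline covariate the downward shift was not seen: the median of the members was 0.03 with 31 of 60 positive, and the calls of cyp-13A5 and cyp-33E2 were lost. The germline markers themselves had a median change of 0.43 here, with 0 called, so covariate and group cannot be told apart fully. The single call of that fit, cyp-32B1, a CYP4-like gene named here after its values were seen, was higher in OE, against 1.12% of all genes called higher and 0.406% lower.

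In OE against wild type, 13 members were called higher and 2 lower, against 7.09% higher and 2.24% lower (9.33% in all) over all tested genes. The groups did not overlap in 11 members that were higher in OE and 2 that were lower, against 4.19% and 2.23% of all tested genes. The median was 0.60 over the members and -0.04 over all tested genes. The 13 and 2 became 7 and 0 without wild type replicates 1, 2 and 4, against 1.07% and 0.153% of all genes, with cyp-13A5, cyp-13A8, cyp-13A11, cyp-13A12, cyp-14A1, cyp-33C8 and cyp-33E3 still called. In that fit, which kept only replicates 3 and 5 of wild type, the median of the members was 0.71, with 45 of 64 positive. On the log2(TPM + 1) scale 12 of 59 members were called higher and 6 lower, against 4.37% and 9.20% of all genes, so the share of members called lower was near the background. The median on that scale was 0.03 over the members, with 30 of 59 positive, and -0.37 over all tested genes. With the germline covariate 11 were called higher and 4 lower, against 3.74% and 1.92% of all genes, and the median of the members was 0.13. Each of the 3 comparisons shares a group of libraries with each other one, so their values are set side by side below and are not independent.

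The cyp-13 family, which groups by sequence with the drug-metabolising CYP3 enzymes of mammals, had the most calls. Of its 14 members 13 were tested, and 10 were called higher in gas-1 than in wild type, all of them in subfamily cyp-13A. Over all tested genes 12.8% were called higher in that comparison. The 12 cyp-13A genes summed to 220 ± 91.7 TPM in OE, 735 ± 181 TPM in gas-1 and 60.0 ± 43.0 TPM in wild type (SD, n = 5 each). The sums spanned 154 to 381 TPM in OE, 516 to 928 TPM in gas-1 and 23.0 to 134 TPM in wild type, so no group overlapped another. Summed as counts, which unlike TPM do not depend on how reads that match several cyp-13A genes were divided among them, the subfamily had 270.2 ± 145 CPM (143 to 519) in OE, 775 ± 181 CPM (509 to 972) in gas-1 and 53.6 ± 34.9 CPM (19.3 to 112) in wild type. On that scale both mutant groups again stood above wild type, while the highest OE library overlapped the lowest gas-1 library. CPM and TPM also scale the libraries differently, and the parts of scaling and of read division in this difference were not tested. Gene totals that were not whole numbers showed such shared reads in 8 or more of the 15 libraries for cyp-13A3, cyp-13A4, cyp-13A5, cyp-13A7, cyp-13A11 and cyp-13A12, and the values of these genes are uncertain by that division.

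cyp-13A5 (chromosome II, 9798277 to 9800362, minus strand, build WBcel235) was the highest member of the subfamily in each group, with 92.9 TPM of the mean sum in OE, 508 TPM in gas-1 and 35.3 TPM in wild type. It had 90.2, 66, 110, 203 and 81.3 CPM in OE, 662, 535, 696, 321 and 434 CPM in gas-1, and 9.29, 87.9, 26.6, 9.51 and 16.8 CPM in wild type. The gas-1 libraries stood above all others, and wild type replicate 2 lay within the OE range. cyp-13A5 rose in gas-1 against wild type (4.13 ± 0.58, edgeR adjusted p 0.000217). It was lower in OE than in gas-1 (-2.27 ± 0.54, adjusted p 0.0456) and higher in OE than in wild type (1.87 ± 0.53, adjusted p 0.0376). The adjusted p of the fall in OE against gas-1 ran from 0.00244 to 0.126 over the alternatives, and passed 0.05 without any 1 of wild type replicates 3 and 5, gas-1 replicates 1, 3 and 5, and OE replicates 1, 2, 3 and 5. The rise of OE against wild type was lost without wild type replicate 1, 3, 4 or 5 or OE replicate 1, 3 or 4, with the adjusted p at most 0.131.

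cyp-13A12, whose product has been tied in worms to the behavioural response to reoxygenation after low oxygen, lies on chromosome III (13024547 to 13028017, plus strand). It had 62.1, 42.8, 74.4, 154 and 78.1 CPM in OE, 109, 105, 125, 97.9 and 96.1 CPM in gas-1, and 2.44, 6.55, 6.53, 11.8 and 2.62 CPM in wild type. Both mutant groups stood above every wild type library, and they overlapped each other. The change was 4.17 ± 0.42 in gas-1 against wild type (adjusted p 1.09e-05) and 3.79 ± 0.42 in OE against wild type (adjusted p 7.08e-05). OE against gas-1 was not called (-0.37 ± 0.37, adjusted p 0.681). Its neighbour cyp-13A11 (13021006 to 13024045, plus strand) was almost silent in wild type. cyp-13A11 had 4.01, 1.92, 3.96, 13.1 and 6.53 CPM in OE, 13.1, 5.86, 7.28, 11.4 and 4.22 CPM in gas-1, and 0.156, 0, 0, 0.186 and 0 CPM in wild type. The wild type values rest on 3, 0, 0, 2 and 0 counts. The fitted changes of cyp-13A11, 7.23 ± 0.92 in gas-1 against wild type (adjusted p 6.54e-05) and 6.73 ± 0.92 in OE against wild type (adjusted p 0.000317), were the largest fitted rises among the members.

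A run of 9 cyp-13A genes lies on chromosome II from 9779181 to 9807569, and all 9 were tested. In gas-1 against wild type all 9 changes were positive and 8 were called, the exception being cyp-13A1 (1.63 ± 1.07, adjusted p 0.277). In OE against wild type all 9 were positive and 3 were called, and in OE against gas-1 cyp-13A1 was the single positive value (1.90 ± 1.05, adjusted p 0.402). Over all tested genes 12.8% were called higher in gas-1 and 7.09% in OE, both against wild type. cyp-13A7, a gene known in worms for its induction by rifampicin, had 14.5, 3.78, 10.6, 13.1 and 3.84 CPM in OE, 54.8, 56.6, 43.6, 22.3 and 13.3 CPM in gas-1, and 0.104, 4.01, 3.26, 4.94 and 5.93 CPM in wild type. Gas-1 lay above wild type in every library (3.39 ± 0.66, adjusted p 0.00288), whereas OE overlapped both groups (-2.06 ± 0.63 against gas-1, adjusted p 0.111, and 1.33 ± 0.63 against wild type, adjusted p 0.194). At the end of the run, cyp-13A8 had 2.39, 2.27, 5.28, 14.7 and 2.24 CPM in OE, 40.0, 5.55, 15.6, 4.12 and 4.97 CPM in gas-1, and 0.675, 0.488, 0, 0 and 0 CPM in wild type. Both mutant groups exceeded wild type in every library, at 5.83 ± 1.11 for gas-1 (adjusted p 0.00226) and 4.43 ± 1.06 for OE (adjusted p 0.0158). cyp-13A2 had 29.9, 15.5, 35.8, 80.7 and 31.6 CPM in OE, 15.4, 30.3, 48.7, 34.0 and 113 CPM in gas-1, and 3.79, 7.88, 9.86, 10.6 and 7.99 CPM in wild type. It rose in both mutant groups without overlap (2.59 ± 0.50, adjusted p 0.00275, in gas-1 and 2.27 ± 0.50, adjusted p 0.0108, in OE). The called changes of the other members of the run in gas-1 against wild type were 3.33 ± 1.00 for cyp-13A3, 2.71 ± 0.63 for cyp-13A6, 2.66 ± 0.87 for the pseudogene cyp-13A9 and 2.36 ± 0.68 for cyp-13A4. The calls of cyp-13A3, cyp-13A9 and cyp-13A4 were lost when any 1 of gas-1 replicates 3 and 5 or wild type replicate 1 was left out. Leaving out wild type replicate 2 or 3 also ended the call of cyp-13A3, wild type replicate 2 or gas-1 replicate 4 that of cyp-13A9, and wild type replicate 5 that of cyp-13A4. Their adjusted p reached 0.765, 0.569 and 0.566 over all alternatives.

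**Figure D2:**
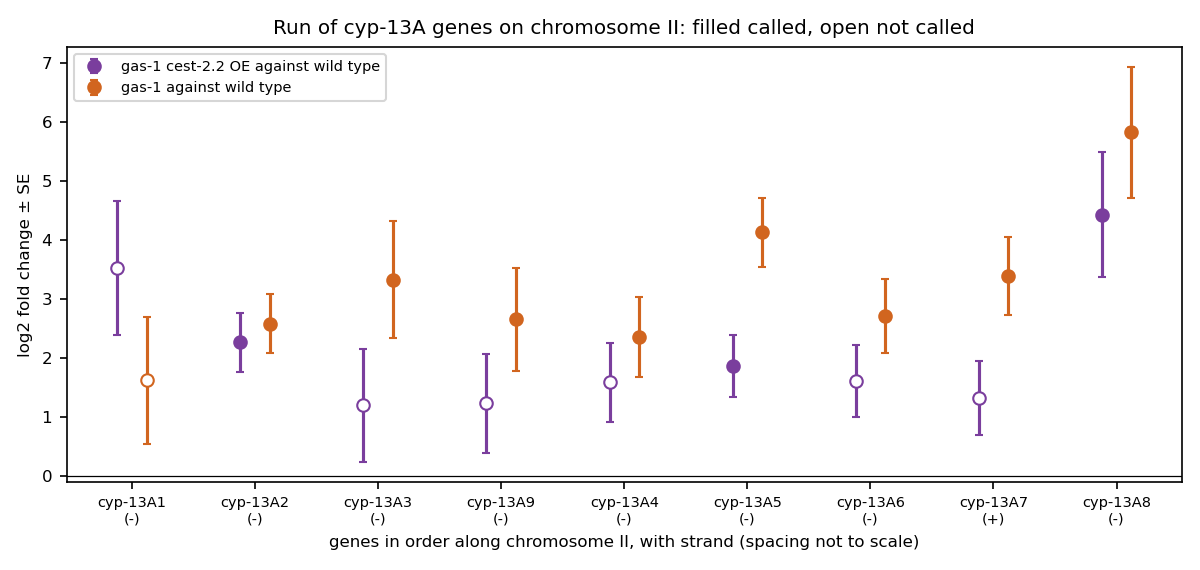
Log2 fold change ± SE against wild type of the 9 cyp-13A genes in their order along chromosome II, with the strand under each name; purple points are OE against wild type, orange points gas-1 against wild type, filled points were called and open points were not. All 18 points lie above 0, and 8 orange and 3 purple points are filled.

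The cyp-33 family, which groups with the CYP2 enzymes of mammals, was the second to change as a group. Of 18 members 12 were tested. In gas-1 against wild type 9 were called higher, against 12.8% of all tested genes, and in OE against wild type 5, against 7.09%. Its summed level was 230 ± 71.1 TPM in OE, 488 ± 188 TPM in gas-1 and 102 ± 23.2 TPM in wild type (SD, n = 5 each). Its highest member in OE and gas-1 was cyp-33C8 (chromosome V, 3800782 to 3803542, minus strand), with 85.4 TPM of the mean sum in OE, 271 TPM in gas-1 and 8.33 TPM in wild type. In wild type the highest was cyp-33A1, at 43.5 TPM. No non-whole total was found for cyp-33C8. cyp-33C8 had 84.9, 60.2, 86.3, 208 and 66.4 CPM in OE, 473, 168, 441, 113 and 212 CPM in gas-1, and 8.87, 15.4, 1.85, 9.14 and 1.37 CPM in wild type. Gas-1 and OE overlapped through OE replicate 4, and both stood above wild type in every library. The change was 5.26 ± 0.68 in gas-1 against wild type (adjusted p 9.11e-05), 3.79 ± 0.63 in OE against wild type (adjusted p 0.00214) and -1.48 ± 0.57 in OE against gas-1 (adjusted p 0.221).

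All 3 cyp-33E genes, which lie on chromosome IV, were called higher in gas-1 than in wild type. cyp-33E2 (8612334 to 8614698, plus strand) encodes an enzyme that makes eicosanoid-type signals from long polyunsaturated fatty acids. It had 19.2, 14.4, 14, 20.5 and 11.1 CPM in OE, 29.4, 27.3, 48.3, 37.8 and 42.6 CPM in gas-1, and 2.96, 4.92, 7.07, 6.90 and 4.45 CPM in wild type. None of the 3 groups overlapped another, and OE lay between gas-1 and wild type. The change of cyp-33E2 was 2.82 ± 0.27 in gas-1 against wild type (adjusted p 5.64e-06), -1.23 ± 0.25 in OE against gas-1 (adjusted p 0.0214) and 1.59 ± 0.26 in OE against wild type (adjusted p 0.00177). Its call in OE against gas-1 was lost without gas-1 replicate 3 or OE replicate 2, 3 or 5, with adjusted p between 0.000323 and 0.12 over the alternatives. cyp-33E3, whose exons overlap those of F42A9.7 on the other strand by 20 bases, changed by 2.42 ± 0.42 in gas-1 (adjusted p 0.00126) and 1.79 ± 0.42 in OE (adjusted p 0.0145), both against wild type. cyp-33E1 rose by 1.26 ± 0.32 in gas-1 (adjusted p 0.0127), and its change in OE against wild type of 0.95 ± 0.32 was not called (adjusted p 0.0694).

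2 further cyp-33C genes were called higher in both mutant groups. cyp-33C9 had 36.6, 27.8, 39.8, 57.1 and 42.5 CPM in OE, 63.0, 37.1, 55.9, 36.3 and 59.8 CPM in gas-1, and 15.2, 20.0, 19.3, 25.3 and 10.7 CPM in wild type. It rose in gas-1 (1.48 ± 0.25, adjusted p 0.000914) and in OE (1.17 ± 0.25, adjusted p 0.00874) against wild type, with no overlap in either comparison. cyp-33C4 had 14.5, 10.1, 19.3, 46 and 21.1 CPM in OE, 25.3, 15.9, 21.8, 16.9 and 43.6 CPM in gas-1, and 3.11, 4.08, 5.29, 6.90 and 1.60 CPM in wild type, and its reads were partly shared with relatives. The rises of cyp-33C4 were 2.56 ± 0.44 in gas-1 (adjusted p 0.00117) and 2.41 ± 0.44 in OE (adjusted p 0.00373), and neither mutant group overlapped wild type. The calls of 3 low genes in gas-1 against wild type depended on single libraries. cyp-33D3 (4.16 ± 1.35) lost its call without gas-1 replicate 1, 3 or 5 and without wild type replicate 1, 2, 3 or 4. cyp-33C2 (3.82 ± 1.27) lost it without the same gas-1 libraries and without wild type replicate 2, 3, 4 or 5, and cyp-33C7 (1.91 ± 0.55) without gas-1 replicate 5 and without wild type replicate 1 or 5. Their adjusted p reached 0.639, 0.499 and 0.997 over all alternatives. The remaining tested members cyp-33A1, cyp-33C3 and cyp-33C5 were not called in any comparison.

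**Figure D3:**
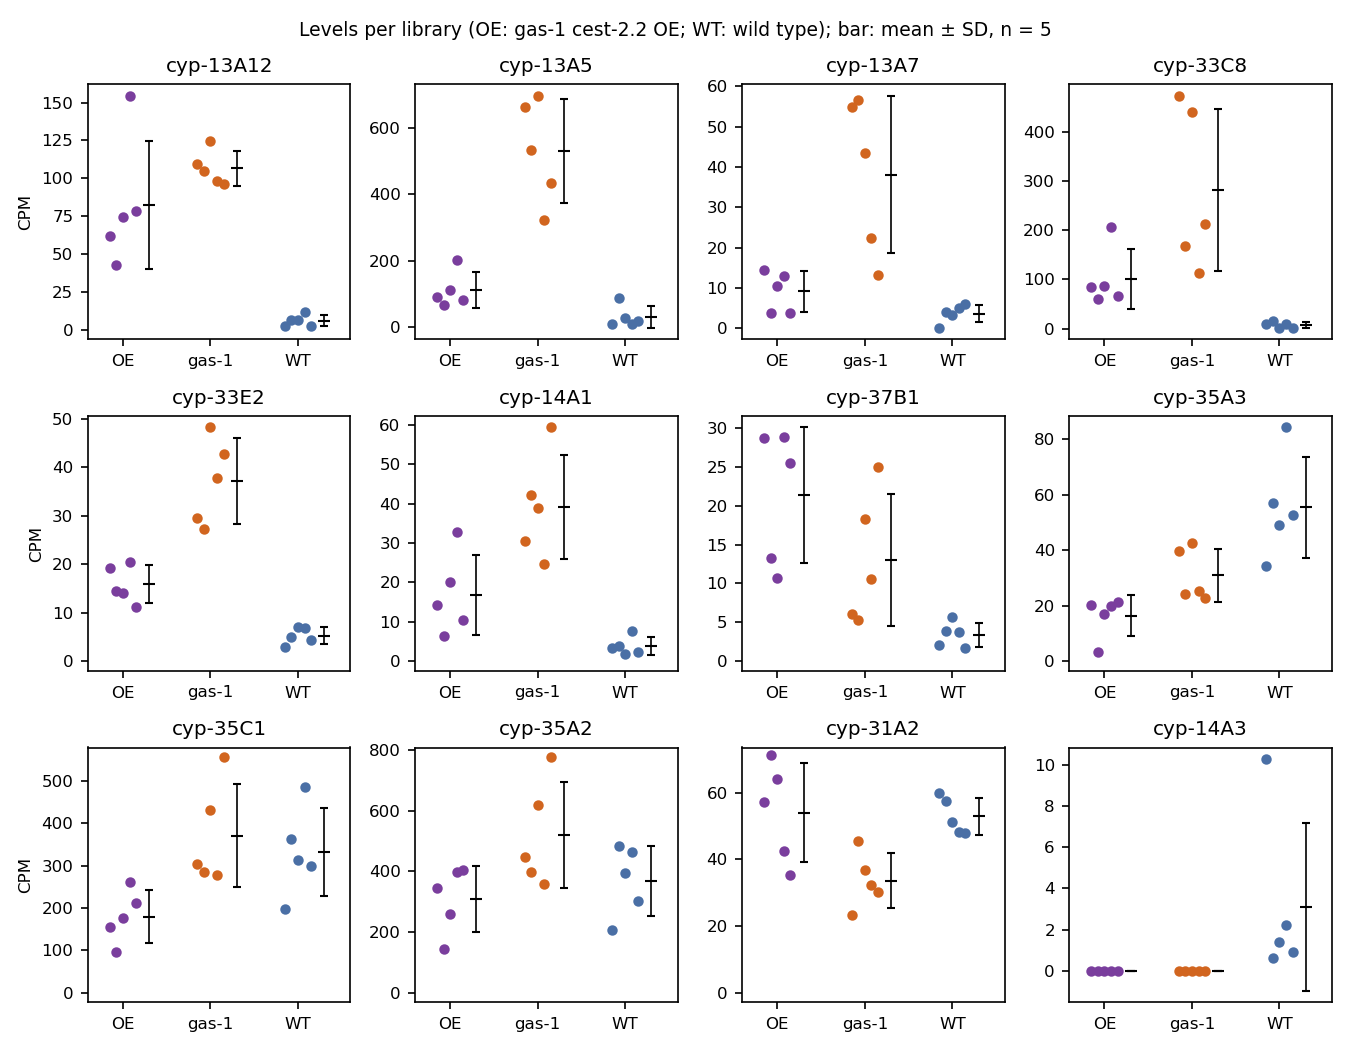
CPM of 12 P450 genes in each library, with OE in purple, gas-1 in orange and wild type (WT) in blue, and the mean ± SD of the 5 libraries beside the points; each panel has its own linear axis. cyp-13A12, cyp-33C8 and cyp-33E2 show both mutant groups above wild type, cyp-13A5 stands at 321 to 696 CPM in gas-1 and at or under 203 CPM in every other library, and cyp-14A3 has counts in wild type alone.

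The 5 cyp-14 genes, also CYP2-like, moved in different directions. cyp-14A1 to cyp-14A4 form a run on chromosome X from 13265041 to 13284197. cyp-14A1 had 14.4, 6.34, 20.0, 32.7 and 10.5 CPM in OE, 30.4, 42.3, 38.9, 24.7 and 59.4 CPM in gas-1, and 3.42, 3.77, 1.73, 7.55 and 2.28 CPM in wild type. Gas-1 lay above every wild type library, and OE replicate 2 fell within the wild type range. cyp-14A1 rose by 3.41 ± 0.46 in gas-1 (adjusted p 0.000145) and by 2.18 ± 0.44 in OE (adjusted p 0.00711) against wild type. At the other end of the run, cyp-14A4 had 0.776, 6.40, 3.49, 6.36 and 0.798 CPM in OE, 7.92, 1.62, 16.1, 4.38 and 10.8 CPM in gas-1, and 0.415, 0.767, 0.632, 0.373 and 0 CPM in wild type. Its rises were 4.16 ± 0.86 in gas-1 (adjusted p 0.00401) and 2.95 ± 0.82 in OE (adjusted p 0.0326), and the second was lost without wild type replicate 1 or 4 or OE replicate 3 or 4, with adjusted p up to 0.299 over the alternatives.

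Between them, cyp-14A3 went the other way. It had no count in any OE or gas-1 library, and 10.3, 0.628, 1.43, 2.24 and 0.913 CPM in wild type. Against a floor of 3 counts over the group, cyp-14A3 was at least 98.2-fold lower in OE (adjusted p 0.0120) and at least 78.1-fold lower in gas-1 (adjusted p 0.00710) than in wild type. Wild type replicate 1 holds most of this level, and without wild type replicates 1, 2 and 4 the adjusted p was 0.188 for OE and 0.107 for gas-1. Its exons overlap 2 noncoding RNA genes on the other strand, which libraries without strand information cannot tell apart. cyp-14A5, on chromosome V, had 0.453, 1.05, 1.13, 0 and 0 CPM in OE, 6.37, 3.43, 1.97, 3.31 and 5.71 CPM in gas-1, and 4.98, 6.76, 0, 19.6 and 3.65 CPM in wild type. Every OE library lay below every gas-1 library, yet the change was not called (-3.02 ± 1.20, adjusted p 0.229). Its highest wild type values were in the replicates 4, 2 and 1 that also had the highest muscle and cuticle sums, and a link was not tested.

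The cyp-35 family, CYP2-like enzymes known in worms for induction by foreign compounds and for effects on fat stores, held the highest levels and few called changes. Its 11 members summed to 483 ± 126 TPM in OE, 973 ± 215 TPM in gas-1 and 931 ± 216 TPM in wild type (SD, n = 5 each). The sums spanned 301 to 619 TPM in OE, 760 to 1261 TPM in gas-1 and 599 to 1198 TPM in wild type. In TPM, OE thus lay below gas-1 without overlap and overlapped wild type. TPM are not corrected for the make-up of each library, and the sum of this family was not compared in CPM. cyp-35A2, the most abundant P450 transcript of wild type, had 344, 146, 260, 398 and 403 CPM in OE, 446, 399, 618, 360 and 777 CPM in gas-1, and 206, 483, 395, 463 and 302 CPM in wild type. Its reads were partly shared with relatives in 14 libraries. The groups overlapped and no comparison was called (-0.75 ± 0.30 in OE against gas-1, adjusted p 0.235). cyp-35C1 had 155, 95.0, 175, 263 and 212 CPM in OE, 304, 284, 432, 278 and 556 CPM in gas-1, and 198, 364, 313, 486 and 300 CPM in wild type. All OE libraries lay below all gas-1 libraries, but neither -1.04 ± 0.28 against gas-1 (adjusted p 0.0801) nor -0.88 ± 0.28 against wild type (adjusted p 0.0601) was called.

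2 cyp-35A genes did change. cyp-35A3 (chromosome V, 4022609 to 4024482, plus strand) had 20.2, 3.43, 17.1, 20.0 and 21.3 CPM in OE, 39.8, 24.2, 42.5, 25.2 and 22.8 CPM in gas-1, and 34.4, 56.8, 48.9, 84.3 and 52.6 CPM in wild type. OE lay below both other groups in every library. cyp-35A3 fell in OE against wild type (-1.75 ± 0.38, adjusted p 0.00979), while -0.91 ± 0.37 in OE against gas-1 (adjusted p 0.243) and -0.84 ± 0.37 in gas-1 against wild type (adjusted p 0.107) were not called. Without wild type replicates 1, 2 and 4 the adjusted p of the fall was 0.105. cyp-35A5 had 15.5, 2.73, 17.9, 5.17 and 10.3 CPM in OE, 25.5, 24.4, 32.6, 17.3 and 35.7 CPM in gas-1, and 5.14, 15.2, 15.7, 13.5 and 6.27 CPM in wild type. Gas-1 stood above every wild type library (1.28 ± 0.44, adjusted p 0.0478), a call that was lost without any 1 wild type library, without gas-1 replicate 1, 3 or 5, and without OE replicate 1 or 5, with adjusted p up to 0.813 over the alternatives. cyp-35B1, a target of the insulin pathway factor daf-16, was at or under 4.88 CPM in every library and was not called. The 4 tested cyp-34 genes, out of 10 members, were not called in any comparison.

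The CYP4-like families, whose mammalian relatives hydroxylate fatty acids, showed both directions. cyp-37B1 (chromosome V, 16278116 to 16280616, plus strand) had 28.7, 13.3, 10.6, 28.8 and 25.4 CPM in OE, 6.01, 5.23, 18.4, 10.6 and 25 CPM in gas-1, and 2.02, 3.83, 5.62, 3.73 and 1.65 CPM in wild type. OE lay above wild type throughout, and gas-1 replicate 2 fell within the wild type range. cyp-37B1 rose by 2.65 ± 0.47 in OE (adjusted p 0.00313) and by 1.94 ± 0.46 in gas-1 (adjusted p 0.00967) relative to wild type. The difference between OE and gas-1 was not called (0.72 ± 0.45, adjusted p 0.468). It shares 69 exon bases with F28G4.2 on the other strand. cyp-37A1, at 40.2 ± 14.5 CPM in OE, 35.7 ± 9.43 in gas-1 and 43.3 ± 10.6 in wild type (SD, n = 5 each), was not called.

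cyp-31A2 and cyp-31A3 act in the germline on lipids of the eggshell, and their transcripts cannot be separated fully because their reads are shared in 15 and 12 libraries. cyp-31A2 had 57, 71.1, 64, 42.4 and 35.3 CPM in OE, 23.2, 45.4, 36.8, 32.2 and 30.1 CPM in gas-1, and 60.0, 57.4, 51.1, 48.3 and 47.7 CPM in wild type. It was lower in every gas-1 library than in any wild type library (-0.66 ± 0.20, adjusted p 0.0318). cyp-31A3 had 39.7, 42.2, 25.5, 32.7 and 19.5 CPM in OE, 23.9, 33.5, 18.0, 27.3 and 14.4 CPM in gas-1, and 41.2, 42.7, 43.9, 29.1 and 43.5 CPM in wild type, and it too fell in gas-1 against wild type, with overlap (-0.77 ± 0.24, adjusted p 0.0342). Both calls were lost without gas-1 replicate 1, 3 or 5 and without wild type replicate 1, 2, 3 or 5, that of cyp-31A2 also without gas-1 replicate 4, and that of cyp-31A3 also without OE replicate 2 or 4. Over all alternatives their adjusted p reached 0.901 and 0.903. The 16 oocyte markers moved with them, with 9 called lower and sums of 6108 to 11915 CPM in OE, 4559 to 7835 in gas-1 and 9507 to 10957 in wild type, and their part in the result was not tested further. The pseudogene cyp-31A1 was called higher in gas-1 (1.64 ± 0.48, adjusted p 0.0244), a call that did not hold when gas-1 replicate 1 or wild type replicate 5 was left out (adjusted p up to 0.623 over all alternatives).

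cyp-32A1 was detected at low levels outside gas-1. It had 0.323, 1.16, 0.754, 0.933 and 0 CPM in OE, no count in any gas-1 library, and 1.97, 2.16, 0.351, 2.05 and 1.14 CPM in wild type. Against the floor of 3 counts over the group it was at least 38.7-fold lower in gas-1 than in wild type (adjusted p 0.00535). OE against gas-1 was not called (adjusted p 0.0558), nor was OE against wild type (-1.28 ± 1.03, adjusted p 0.466). cyp-29A4 had 12, 5.54 and 19.5 CPM in the muscle-rich wild type replicates 1, 2 and 4, and 0.211 and 2.79 CPM in the other wild type libraries, and it was not called. cyp-29A2 had 27 ± 7.91 CPM in OE, 27.1 ± 9.43 in gas-1 and 36.4 ± 9.75 in wild type (SD, n = 5 each), again without a call, and cyp-42A1 was too low to test.

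Among the remaining families, the abundant cyp-25A1 and cyp-25A2 did not pass the threshold in any comparison. cyp-25A1 had 107 ± 39.0 CPM in OE, 141 ± 37.8 in gas-1 and 151 ± 34.6 in wild type (SD, n = 5 each). The reads of these 2 genes and of their low neighbours cyp-25A3 and cyp-25A4 on chromosome III were partly shared in 14 or 15 of the 15 libraries, so the values of the low genes are uncertain by the division of reads. The low neighbours were called higher in gas-1 than in wild type, cyp-25A3 by 2.41 ± 0.68 (adjusted p 0.0202) and cyp-25A4 by 1.69 ± 0.48 (adjusted p 0.0211), with overlap between the groups, and the second call was lost without gas-1 replicate 3 or 5. cyp-36A1, reported in worms to act downstream of the oxygen sensor egl-9, was not called (0.78 ± 0.43 in gas-1 against wild type, adjusted p 0.198). cyp-44A1, which groups with the mitochondrial P450 enzymes of vertebrates, was not called either, at 36.3 ± 6.38 CPM in OE, 40.5 ± 18.4 in gas-1 and 29.8 ± 4.61 in wild type (SD, n = 5 each).

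Genes that serve P450 enzymes were examined as lists. Of 11 tested partners and neighbouring phase I enzymes, 3 were called higher and 0 lower in gas-1 against wild type, where 21.4% of all tested genes were called. emb-8, the cytochrome P450 reductase, rose by 1.17 ± 0.22 in gas-1 (adjusted p 0.00188) and by 0.96 ± 0.21 in OE (adjusted p 0.0119), with 224 ± 75.3 CPM in OE, 260 ± 39.8 in gas-1 and 115.3 ± 23.0 in wild type (SD, n = 5 each). vem-1, a heme-binding protein of the progesterone receptor membrane component type, had 11.4 ± 4.45 CPM in OE, 37.1 ± 12.4 in gas-1 and 10.2 ± 1.82 in wild type (SD, n = 5 each). Its change was 1.87 ± 0.28 in gas-1 against wild type (adjusted p 0.000418), -1.71 ± 0.28 in OE against gas-1 (adjusted p 0.00489) and 0.15 ± 0.28 in OE against wild type (adjusted p 0.768). The cytochrome b5 gene cytb-5.2 rose by 0.68 ± 0.18 in gas-1 (adjusted p 0.0170). fmo-2, a flavin-containing monooxygenase chosen after its values were seen, had 25.6 to 47.2 CPM in OE, 0.407 to 10.8 CPM in gas-1 and 0.114 to 13.9 CPM in wild type, but its change in OE against gas-1 missed the threshold (3.65 ± 0.99, adjusted p 0.0793).

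Worms cannot make heme and take it up through the intestine. Of 6 tested heme transport genes, 4 were called higher in gas-1 than in wild type, 3 in OE against wild type and 0 in OE against gas-1, where 12.8%, 7.09% and 0.633% of all tested genes were. Intestine markers, of which 9 of 18 were called higher in each mutant group against wild type, moved with them, and their part was not tested. hrg-4, an importer of the intestinal membrane, changed by 1.77 ± 0.38 in gas-1 (adjusted p 0.00516) and 1.53 ± 0.38 in OE (adjusted p 0.0193). hrg-1, which moves heme out of lysosome-like compartments, changed by 1.5 ± 0.28 (adjusted p 0.00201) and 1.21 ± 0.28 (adjusted p 0.0132), and the heme exporter mrp-5 by 1.29 ± 0.32 (adjusted p 0.0115) and 1.43 ± 0.32 (adjusted p 0.0119), in gas-1 and OE against wild type. hrg-3, a secreted heme carrier of the intestine, rose in gas-1 (2.83 ± 0.77, adjusted p 0.0170). Of 16 tested regulators reported for worm detoxification genes, nhr-8, sbp-1, elt-2 and nhr-114 were called higher in both mutant groups than in wild type, and 0 differed between OE and gas-1. These 4 of 16 stand against 12.8% of all tested genes called higher in gas-1 and 7.09% in OE against wild type, and the 0 against 1.59% called between OE and gas-1. nhr-8, a nuclear receptor of the xenobiotic response, changed by 1.5 ± 0.30 in gas-1 (adjusted p 0.00322) and 1.66 ± 0.30 in OE (adjusted p 0.00344). elt-2, which drives intestinal transcription, changed by 1.21 ± 0.32 in gas-1 (adjusted p 0.0164) and 1.14 ± 0.32 in OE (adjusted p 0.0359). It is itself 1 of the 18 intestine markers and is among the 9 called higher in each of these comparisons.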

How the data were processed

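Per the submitters' processing notes, the tools were bcl2fastq 2.20 and kallisto 0.44.0 with build WBcel235. Per the labels, Smart-seq2 libraries without strand information were made from total RNA. The deposited files give estimated counts, not normalized, and TPM per target, per the file headers, besides target lengths (other values, in bases). Targets carry only integers. They were read as line numbers of the deposited map counted from 0, and 99.96% of 27233 noncoding lengths then equalled those of Ensembl release 115, against 53.07% with the map moved by 1 line. The authors' table of comparisons was not used here, since its names did not match these files. Coordinates and exon overlaps come from release 115.

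Estimated counts were summed per gene and rounded. edgeR 4.0.16 in R 4.3.3 fitted all 15 libraries together (TMM, filterByExpr with a minimum count of 10, quasi-likelihood test, 12 residual degrees of freedom). CPM are TMM-scaled. DESeq2 1.42.0 and limma 3.58.1 served as alternatives. The scripts were tested on simulated counts. Gene totals over 0.01 from a whole number were taken to share reads. Runs have gaps of at most 20000 bases.

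Named with values were the 12 largest called rises and all called falls in gas-1 against wild type, all calls in OE against gas-1, the 6 largest other calls in OE against wild type, the 8 highest in wild type, and genes with described roles. The members, lists and rule were chosen with earlier results of these data known. The alternatives were other scaling, tests, filters, TPM, group subsets, the replicate block, 3 libraries left out, a germline covariate and each library left out.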

Additional observations from a re-analysis of the deposited data

Results flagged for a closer look

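In 105 groups of 5 libraries, those of each named member and of the summed TPM, 8 held a library whose gap to its nearest neighbour exceeded 0.71 of the group's range, where chance gives about 1 in 20. OE replicate 4 stood high for cyp-13A8 (14.7 CPM, the others at 2.24 to 5.28) and for cyp-33C8 (208 CPM, the others at 60.2 to 86.3). Wild type replicate 2 stood high for cyp-13A5 (87.9 CPM, the others at 9.29 to 26.6). Wild type replicate 1, which is rich in muscle and cuticle transcripts, stood high for cyp-14A3 (10.3 CPM, the others at 0.628 to 2.24). Replicates 2 and 4 of wild type, also rich in them, had 0.628 and 2.24 CPM of cyp-14A3, and a link was not tested. Gas-1 replicate 5 stood high for cyp-44A1 (73.4 CPM, the others at 29.97 to 34.42), and gas-1 replicate 3 was the only gas-1 library with cyp-42A1 (0.510 CPM). OE replicate 2 stood low for cyp-35A3 (3.43 CPM, the others at 17.1 to 21.3), and wild type replicate 4 stood low for cyp-31A3 (29.1 CPM, the others at 41.2 to 43.9).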

How the results depend on the processing

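Of the P450 genes called, 19 of 30 in gas-1 against wild type, 0 of 2 in OE against gas-1 and 13 of 15 in OE against wild type were called in all 15 fits that left out a library, and 6, 0 and 5 under every alternative that tested them. No called gene changed its direction in any alternative. Left-out fits called 20 to 31, 0 to 3 and 13 to 19 P450 genes. Over all 10797 to 10987 genes of those fits, 1319 to 2489, 85 to 380 and 512 to 1630 were called. In OE against gas-1, leaving out gas-1 replicate 3 or OE replicate 2 or 3 left 0 calls. Leaving out gas-1 replicate 1 or 5, OE replicate 1 or 5, or wild type replicate 3 or 5 left 1 call, which was higher in OE only without OE replicate 5. In gas-1 against wild type the count was 12 without the 3 muscle-rich wild type libraries and 7 with the germline marker covariate. In OE against gas-1 it was 8 with the DESeq2 Wald test, 4 with limma-voom (2.03% of all genes), 8 on log2(TPM + 1), all lower (2.74% of all genes called lower), and 1 with the germline covariate, a different gene that was higher in OE. In OE against wild type it was 23 with the DESeq2 Wald test (14.5% of all genes) and 7 without the muscle-rich libraries. The median change of the members in gas-1 against wild type was 0.60 on log2(TPM + 1), 0.69 without gas-1 replicate 5 and 0.71 with no filter on low counts. In OE against gas-1 the median was -0.28 without gas-1 replicate 5 and -0.80 without OE replicate 4. In OE against wild type it was 0.29 without OE replicate 4, 0.37 without OE replicate 3, 0.36 without wild type replicate 1, 0.39 without wild type replicate 3 and 0.94 without wild type replicate 2, and 0.27 with no filter on low counts, 0.38 with the replicate block and 0.39 with only the groups compared. The germline level itself differs between the groups, so covariate and group cannot be told apart fully. The causes of these moves were not tested.

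No label says that equal replicate numbers pair the samples. Of 5 same-numbered pairs, 0, 1 and 1 had residuals correlated above 0.1 in the 3 comparisons, with values from -0.336 to 0.272. Differently numbered pairs were not compared, so these values cannot decide whether the samples were paired. With the replicate block, 27, 1 and 13 of 60 P450 genes were called, against 2139, 102 and 753 of all 10585 tested genes. On log2(TPM + 1) the median of all tested genes moved to -0.31 in gas-1 against wild type and -0.37 in OE against wild type. Depth limits the 21 untested members, and genes of a few counts per library.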
